A study of Schizosaccharomyces pombe with 13 samples.

Results

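The genes described here are 10 regulators of the stress MAP kinase pathways of the fission yeast Schizosaccharomyces pombe, chosen by gene identifier. They are the upstream activators mcs4, wis4 and wis1, the MAP kinases sty1 and pmk1, the phosphatases pyp1 and pyp2, and the transcription factors atf1, pap1 and hsf1. All 10 were among the 5747 entries of the authors' deposited sense table, and 3 of them (wis4, pyp1 and hsf1) were among the 1561 entries of the antisense table. RNA of haploid cells was compared between strains that lack xap5 (SPCC1020.12c::KanMx4, Bioneer-BG4186, h+, 3 libraries), pht1 (SPBC11B10.10c::NatMx4, h-, 3 libraries) or both genes (both cassettes, h-, 3 libraries) and wild type (h+, 4 libraries). Every strain, wild type included, was of the ED668 background and carried ade6-M216, ura4-D18 and leu1-32. Cultures were precultured at 30 °C in YES and then grown exponentially at 37 °C in EMM50. Strand-specific, randomly primed libraries of rRNA-depleted RNA were read as single reads of 100 bases, at a stated mean of 11.8 M reads per library. The labels do not tie the libraries to separate cultures, and the deposited p-values then reflect spread among libraries, which may be technical.

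In fission yeast, the stress-activated cascade runs from Mcs4 through the MAP kinase kinase kinases Wis4 and Win1 and the MAP kinase kinase Wis1 to the MAP kinase Sty1. Sty1 phosphorylates the bZIP factor Atf1, which with Pcr1 drives genes of the core stress response. Pyp1 and Pyp2 remove the activating tyrosine phosphate from Sty1, and pyp2 is itself a known Sty1 and Atf1 target. Pap1 is the bZIP factor of the oxidative stress response, Pmk1 the MAP kinase of the cell integrity pathway, and Hsf1 the factor that drives chaperone genes in heat shock. These proteins are switched largely by phosphorylation, by nuclear transport or by chaperone binding, which transcript levels do not measure. Of the deleted genes, pht1 codes for H2A.Z, a variant of histone H2A, and the product of xap5 is a nuclear protein found across eukaryotes.

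All folds below are the authors' deposited log2 values, each deletion strain over wild type, and a gene was called where the deposited adjusted p-value was under 0.05. No level, value per library or standard error was used here, so spread within a strain cannot be shown. The depth of each library is unknown, and no counting interval can be given. The 3 comparisons share the wild-type libraries. Transcripts of xap5 were lower in the xap5 deletion (deposited log2 fold -3.11, adjusted p = 5.84e-14) and in the double deletion (-2.11, adjusted p = 0.000729). Transcripts of pht1 had a deposited log2 fold of -2.13 in its own deletion (adjusted p = 4.64e-06) and of -1.55 in the double deletion (adjusted p = 1.74e-10). The pht1 and double deletions differ from wild type in labelled mating type too, and the effects of genotype and mating type cannot be told apart there. In the xap5 deletion, labelled h+ like wild type, the M-type gene mat1-Mc had a deposited log2 fold of -4.27 (adjusted p = 4.71e-25), whereas it was 0.16 in the pht1 deletion (adjusted p = 0.694) and 0.84 in the double deletion (adjusted p = 0.00181), both labelled h-. The xap5 and pht1 values go against the labels, whereas the rise in the double deletion is in the labelled direction. The M-type gene mfm2 fell without xap5 (-2.62, adjusted p = 7.89e-21) and rose without both genes (0.68, adjusted p = 0.00624). The P-type gene map1 rose in both strains (1.28, adjusted p = 2.06e-07, and 1.02, adjusted p = 2.75e-05), the latter against the label. Of map2 and map3, also P-type, only map3 was called, in the xap5 deletion (0.53, adjusted p = 0.0085). Mating type itself and its part in the results below were not tested in any strain.

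The regulators that moved most were the phosphatases and atf1, whereas 3 members of the core cascade (mcs4, wis1 and sty1) were not called in any comparison. In the xap5 deletion, 3 of the 10 members rose (atf1, pyp1 and pyp2), beside 21.1% of all sense entries called higher, and 1 fell (pmk1), beside 20.6% of entries called lower. In the pht1 deletion, 3 of 10 rose (pyp2, pyp1 and hsf1), beside 13.5% of entries called higher, and 0 fell, beside 11.1% called lower. In the double deletion, 6 of 10 rose (pyp1, atf1, pyp2, pap1, wis4 and hsf1), beside 30.5% of entries called higher, and 1 fell (pmk1), beside 34.3% called lower. The members' median deposited log2 fold was 0.05 without xap5, 0.17 without pht1 and 0.47 without both, where the medians of all entries were -0.01, -0.02 and -0.05. The members were chosen with earlier results known and are few, so these counts describe the genes and set nothing apart. In bulk cultures, a change in the share of cells that express a gene and a change in its RNA per cell cannot be told apart.

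**Figure D1:**
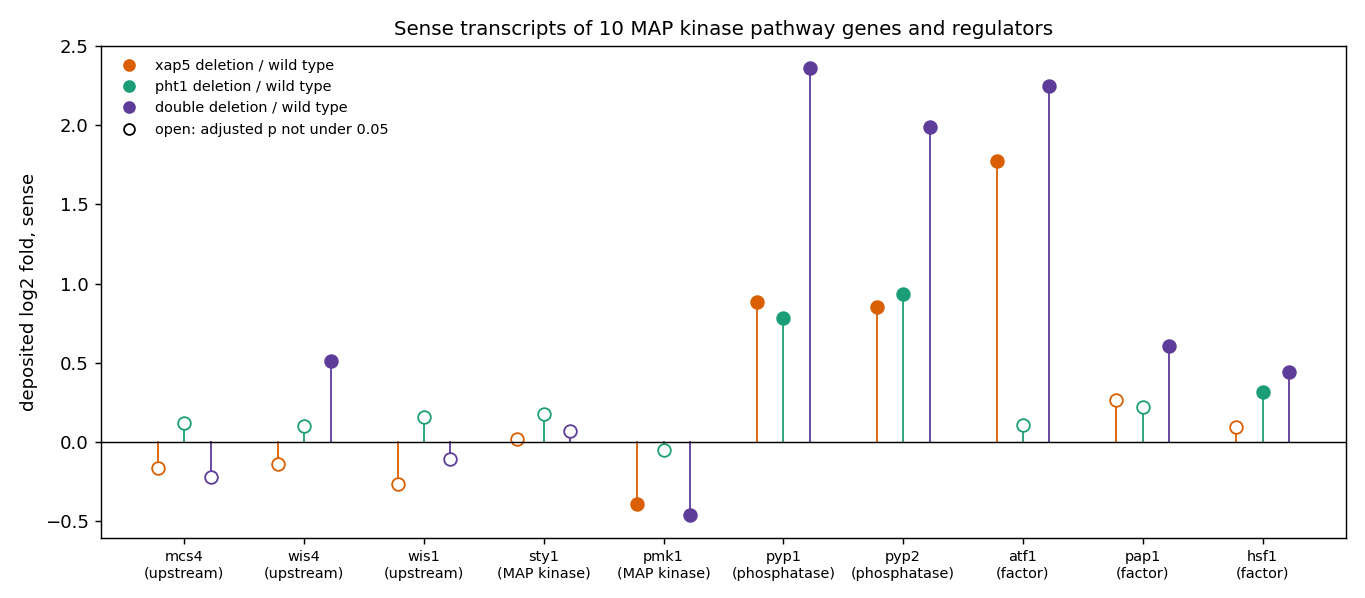
Deposited log2 folds of the sense transcripts of the 10 genes (vertical axis), for each deletion strain over wild type; filled circles have an adjusted p under 0.05 and open circles do not, and errors of these folds were not used here. The circles of pyp1 and pyp2 are filled in all 3 comparisons, those of mcs4, wis1 and sty1 in none, and atf1 stands at 1.77 and 2.25 in the strains that lack xap5 but at 0.10 in the pht1 deletion.

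The start regions of atf1, pyp1 and pyp2 are shown because these genes had the highest folds of the members, pyp1 and pyp2 in the same 3 comparisons and atf1 in 2 of them. Each is 250 bases before to 50 bases after the first base of the RefSeq gene (assembly ASM294v3), 5′ to 3′ on the gene's strand: atf1 at chrII:1545967-1546266 (+), pyp1 at chrI:5161262-5161561 (+) and pyp2 at chrI:5202406-5202705 (+). Capitals mark every match to TGACGT, the core of the element bound by Atf1 and Pcr1, on either strand.
atf1: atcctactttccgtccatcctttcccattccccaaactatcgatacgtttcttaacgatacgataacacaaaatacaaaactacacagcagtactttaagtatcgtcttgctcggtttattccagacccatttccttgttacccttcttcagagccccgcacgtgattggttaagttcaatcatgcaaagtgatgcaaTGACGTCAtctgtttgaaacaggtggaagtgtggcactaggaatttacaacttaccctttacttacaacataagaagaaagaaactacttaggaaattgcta
pyp1: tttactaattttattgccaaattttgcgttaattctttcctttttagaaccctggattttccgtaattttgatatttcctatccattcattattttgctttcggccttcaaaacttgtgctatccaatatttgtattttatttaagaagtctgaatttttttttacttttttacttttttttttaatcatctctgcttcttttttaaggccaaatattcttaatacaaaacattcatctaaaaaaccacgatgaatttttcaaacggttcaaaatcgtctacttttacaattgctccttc
pyp2: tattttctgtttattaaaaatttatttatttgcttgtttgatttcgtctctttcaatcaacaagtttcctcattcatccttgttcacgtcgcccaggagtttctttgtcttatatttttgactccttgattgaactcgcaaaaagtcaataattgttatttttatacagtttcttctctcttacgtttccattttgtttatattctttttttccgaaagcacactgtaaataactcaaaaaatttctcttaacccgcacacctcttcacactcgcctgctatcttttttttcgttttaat
The atf1 region holds this core on both strands, the matches overlapping to form the palindrome in capitals, at bases -52 to -47 on the gene strand and -50 to -45 on the other strand. It is the only one of the 10 members' regions with a match, and 5.91% of the 5112 protein-coding start regions of that length hold one. A match describes letters only, and a region without one says nothing of binding. The regions depend on the gene models. That of pyp1 opens with the letters atg, so it may begin at the start codon, and its region may not lie at the transcript start.

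Among the upstream activators, only wis4 was called, and only in the double deletion. Transcripts of mcs4 (SPBC887.10, chrII:3557088-3559137, + strand), which encodes a response regulator upstream of the cascade, had deposited log2 folds of -0.17 in the xap5 deletion (adjusted p = 0.299), 0.12 in the pht1 deletion (adjusted p = 0.527) and -0.22 in the double deletion (adjusted p = 0.118). Those of wis1 (SPBC409.07c, chrII:1143731-1146603, - strand), the MAP kinase kinase that phosphorylates Sty1, had deposited log2 folds of -0.27 (adjusted p = 0.207), 0.16 (adjusted p = 0.527) and -0.11 (adjusted p = 0.587) in the xap5, pht1 and double deletions. For wis4 (SPAC9G1.02, chrI:1968857-1973575, + strand), a MAP kinase kinase kinase, the deposited log2 fold was -0.14 in the xap5 deletion (adjusted p = 0.358), 0.10 in the pht1 deletion (adjusted p = 0.583) and 0.51 in the double deletion (adjusted p = 3.42e-05), a 1.42-fold rise. Neither single deletion moved wis4 past the threshold, and its double deletion fold exceeded that of the xap5 deletion by 0.65 and that of the pht1 deletion by 0.41, differences that carry no error and were not tested.

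Antisense signal at wis4 was also called, on the deposited antisense table. It had log2 folds of 0.77 in the xap5 deletion (adjusted p = 0.0317), 0.45 in the pht1 deletion (adjusted p = 0.262) and 1.62 in the double deletion (adjusted p = 1.11e-09), 3.08-fold higher. In the double deletion both strands of wis4 were therefore higher. The first 190 bases of wis4 lie under SPAC9G1.14, an entry on the opposite strand described as dubious, for which the authors' deposited table gives log2 folds of 1.82 in the xap5 deletion (adjusted p = 1.87e-06), 1.59 in the pht1 deletion (adjusted p = 0.000119) and 3.06 in the double deletion (adjusted p = 2.13e-19). Signal of this entry and antisense signal of wis4 cannot be told apart in the overlap. The far end of wis4 overlaps the ribosomal protein gene rpl3001 on the opposite strand by 97 bases, and rpl3001 fell in the xap5 deletion (deposited log2 fold -0.41, adjusted p = 0.0304) and the double deletion (-0.69, adjusted p = 7.14e-05).

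The MAP kinase sty1 itself (SPAC24B11.06c, chrI:206476-208136, - strand) was close to wild type. Its deposited log2 folds were 0.02 in the xap5 deletion (adjusted p = 0.935), 0.17 in the pht1 deletion (adjusted p = 0.292) and 0.07 in the double deletion (adjusted p = 0.626). A p-value above the threshold does not show that levels were equal, and no interval was used here. Sty1 was not listed in the antisense table, but the annotated antisense RNA SPNCRNA.622 (chrI:206775-209401, + strand) overlaps sty1 by 1362 bases. It is an entry of the antisense table and rose in all 3 strains, with deposited log2 folds of 0.94 in the xap5 deletion (adjusted p = 3.14e-08), 0.79 in the pht1 deletion (adjusted p = 1.1e-05) and 1.60 in the double deletion (adjusted p = 1.18e-23). Of the chosen features in the antisense table, 33%, 42.6% and 76.7% were called higher in those strains. This RNA also runs under SPAC24B11.07c, the next gene upstream on the strand of sty1, 702 bases away, which fell in the xap5 deletion (deposited log2 fold -0.43, adjusted p = 0.00245) and the double deletion (-0.79, adjusted p = 2.48e-09) and had 0.00 in the pht1 deletion.

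The cell integrity kinase pmk1 (SPBC119.08, chrII:730816-732952, + strand) was the only member that fell. Its deposited log2 fold was -0.40 in the xap5 deletion (adjusted p = 0.00534), -0.05 in the pht1 deletion (adjusted p = 0.809) and -0.47 in the double deletion (adjusted p = 0.000437), a level 0.76 and 0.724 times wild type in the 2 called strains. These changes are small, and among all deposited sense folds pmk1 stood at percentile 16.3 in the xap5 deletion and 25 in the double deletion. The upstream gene vps15 overlaps its start by 20 bases on the same strand and went the other way, with deposited log2 folds of 0.48 in the xap5 deletion (adjusted p = 0.000363) and 0.88 in the double deletion (adjusted p = 1.68e-12). Its downstream neighbour orm1 was called higher in all 3 strains (deposited log2 folds 0.31, 0.30 and 0.50, adjusted p = 0.0256, 0.0449 and 7.54e-05).

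The phosphatases were the only members called in all 3 comparisons. For pyp1 (SPAC26F1.10c, chrI:5161512-5163360, + strand) the deposited log2 fold was 0.88 in the xap5 deletion (1.84-fold, adjusted p = 4.13e-06), 0.78 in the pht1 deletion (1.72-fold, adjusted p = 0.00014) and 2.36 in the double deletion (5.14-fold, adjusted p = 1.34e-40). For pyp2 (SPAC19D5.01, chrI:5202656-5205202, + strand) it was 0.85 in the xap5 deletion (1.81-fold, adjusted p = 1.7e-05), 0.94 in the pht1 deletion (1.91-fold, adjusted p = 5.1e-06) and 1.99 in the double deletion (3.98-fold, adjusted p = 7.35e-28). Both genes thus rose under 2-fold in each single deletion and by more in the double deletion.

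The sum of the 2 single-deletion log2 folds was 1.66 for pyp1, 0.70 below its double deletion value, and 1.79 for pyp2, 0.20 below its double deletion value. For the other members, the double deletion value minus this sum was 0.55 for wis4, 0.37 for atf1, 0.13 for pap1 and 0.04 for hsf1. It was 0.00 for wis1, -0.02 for pmk1, -0.12 for sty1 and -0.17 for mcs4. No value over all sense entries was set beside these. These sums are built from deposited folds that share wild type, carry no error and were not tested. The 3 sense entries whose deposited log2 folds were nearest to those of pyp1, by Euclidean distance over the 3 comparisons, were SPBC609.01, described as an RNB family ribonuclease (distance 0.15), SPAC977.14c, described as an aldo/keto reductase (0.20), and obr1 (0.25). The nearest to pyp2 were atg43 (0.11), the noncoding SPNCRNA.1110 (0.14) and SPBC354.11c (0.15). The gene obr1 belongs to the Pap1 target list below.

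The antisense strand of pyp1 moved in the pht1 deletion. Its deposited antisense log2 fold was 1.52 there (2.87-fold, adjusted p = 0.000723), against -0.30 in the xap5 deletion (adjusted p = 0.817) and -0.15 in the double deletion (adjusted p = 0.833). The double deletion, where sense pyp1 had its highest fold, did not share the antisense call; the difference between these comparisons was not tested. Beside pyp2, the noncoding SPNCRNA.1059 lies 632 bases upstream on the same strand and rose in the pht1 deletion (deposited log2 fold 0.94, adjusted p = 0.0141) and the double deletion (0.75, adjusted p = 0.0307), and its deposited fold was -0.25 in the xap5 deletion (adjusted p = 0.632).

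**Figure D2:**
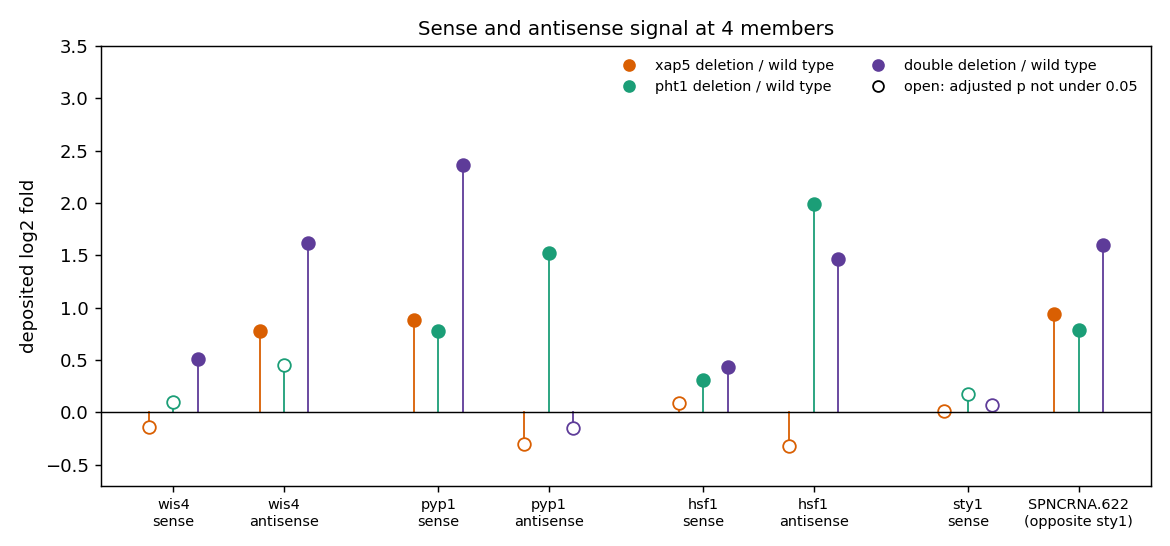
Deposited log2 folds over wild type of the sense and antisense signal of wis4, pyp1 and hsf1, and of sty1 beside the antisense RNA SPNCRNA.622 (filled, adjusted p under 0.05). SPNCRNA.622, from the antisense table, stands at 0.94, 0.79 and 1.60 while sty1, from the sense table, stays between 0.02 and 0.17. The antisense of pyp1 is filled in the pht1 deletion alone.

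The transcription factor atf1 (SPBC29B5.01, chrII:1546217-1549862, + strand) had the largest fold of any member in the xap5 deletion. Its deposited log2 fold was 1.77 there (3.42-fold, adjusted p = 4.93e-24), 0.10 in the pht1 deletion (adjusted p = 0.716) and 2.25 in the double deletion (4.76-fold, adjusted p = 9.13e-39). The double deletion exceeded the xap5 deletion by 0.48 and the pht1 deletion by 2.15, without error or test. Atf1's partner pcr1 rose in the xap5 deletion (deposited log2 fold 0.74, adjusted p = 8.37e-06) and the double deletion (1.59, adjusted p = 3.66e-25), and its fold without pht1 was 0.37 (adjusted p = 0.0574). The noncoding SPNCRNA.1441, which overlaps the first 38 bases of atf1 on the same strand and is described as a possible alternative UTR, had deposited log2 folds of -1.36 in the xap5 deletion (adjusted p = 0.0619), -0.81 in the pht1 deletion (adjusted p = 0.328) and 1.08 in the double deletion (adjusted p = 0.0248).

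The oxidative stress factor pap1 (SPAC1783.07c, chrI:2200353-2202989, - strand) was called in the double deletion, where its deposited log2 fold was 0.60 (1.52-fold, adjusted p = 1.17e-06). It was 0.26 in the xap5 deletion (adjusted p = 0.064) and 0.22 in the pht1 deletion (adjusted p = 0.172). The heat shock factor hsf1 (SPAC2E12.02, chrI:5059255-5062056, + strand) had deposited log2 folds of 0.09 in the xap5 deletion (adjusted p = 0.569), 0.31 in the pht1 deletion (1.24-fold, adjusted p = 0.0384) and 0.44 in the double deletion (1.36-fold, adjusted p = 0.000523). The rises of both factors were small, and that of hsf1 in the pht1 deletion was not under an adjusted p of 0.01.

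Antisense signal at hsf1 was called in both strains that lack pht1. The deposited antisense log2 fold was 1.99 in the pht1 deletion (3.98-fold, adjusted p = 5.59e-06), 1.47 in the double deletion (2.77-fold, adjusted p = 0.000825) and -0.32 in the xap5 deletion (adjusted p = 0.817). The opposite-strand gene SPAC2E12.03c overlaps the end of hsf1 by 335 bases, and it rose in the pht1 deletion (deposited log2 fold 0.57, adjusted p = 0.00717) and the double deletion (1.03, adjusted p = 8.74e-09). Its fold in the xap5 deletion was 0.11 (adjusted p = 0.667). Signal of this gene and antisense signal of hsf1 cannot be told apart in the overlap. Upstream of hsf1 by 201 bases, snt1 had higher antisense signal in all 3 strains (deposited log2 folds 1.93, 1.74 and 2.78) and lower sense signal in the xap5 deletion (-0.50, adjusted p = 0.000284) and the double deletion (-0.87, adjusted p = 3.16e-11).

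Further genes around a member were called in the deposited tables. They are entries that overlap it, or the nearest entry on each side that does not, which can lie beyond an overlapping gene. Beside pyp1, SPAC26F1.11, described as dubious, lies 3171 bases upstream on the opposite strand and rose in the xap5 deletion (deposited log2 fold 2.11) and the double deletion (2.38), where its antisense signal also rose (4.00). Beside mcs4, sog2 had higher antisense signal in the xap5 deletion (deposited log2 fold 1.33), the pht1 deletion (1.40) and the double deletion (3.68), and higher sense signal in the double deletion (0.68). Upstream of wis1 by 4610 bases, SPBC409.08 fell in the xap5 deletion (deposited log2 fold -1.27) and the double deletion (-0.74) and rose in the pht1 deletion (0.42).
The called sense changes of the remaining neighbours were under 2-fold. In the double deletion, uch2 beside wis1 (deposited log2 fold -0.37) and rpl1502 beside pap1 (-0.47) fell, and SPAC24B11.05 beside sty1 (0.41) and isp4 beside atf1 (0.44) rose. The gene sco1, 5789 bases upstream of pmk1 and beyond vps15, fell in the xap5 deletion (deposited log2 fold -0.48) and the double deletion (-0.34). Beyond SPAC2E12.03c and 2724 bases downstream of hsf1, wtf1 rose in the same strains (0.50 and 0.96). Upstream of atf1 by 1441 bases, fic1 rose in the xap5 and pht1 deletions (deposited log2 folds 0.52 and 0.51). The gene oxa101, 1627 bases downstream of wis4, rose in the xap5 deletion (0.31). The gene emc10, which overlaps the end of pyp2 on the opposite strand by 48 bases, rose in the pht1 deletion (0.42). Antisense signal rose in the double deletion at oxa101, SPAC24B11.07c, vps15, sco1 and isp4 (deposited log2 folds 1.75, 1.58, 1.35, 1.21 and 0.93), and in the pht1 deletion at oxa101 and SPAC24B11.07c (1.65 and 1.73).

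In the deposited antisense table, the called members were 1 of 3 in the xap5 deletion (wis4), beside 33% of entries called higher, 2 of 3 in the pht1 deletion (pyp1 and hsf1), beside 42.6%, and 2 of 3 in the double deletion (wis4 and hsf1), beside 76.7%. That table lists features that passed a p cut of the authors in some comparison, so the other 7 members have no antisense value here and these shares describe chosen features.

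**Figure D3:**
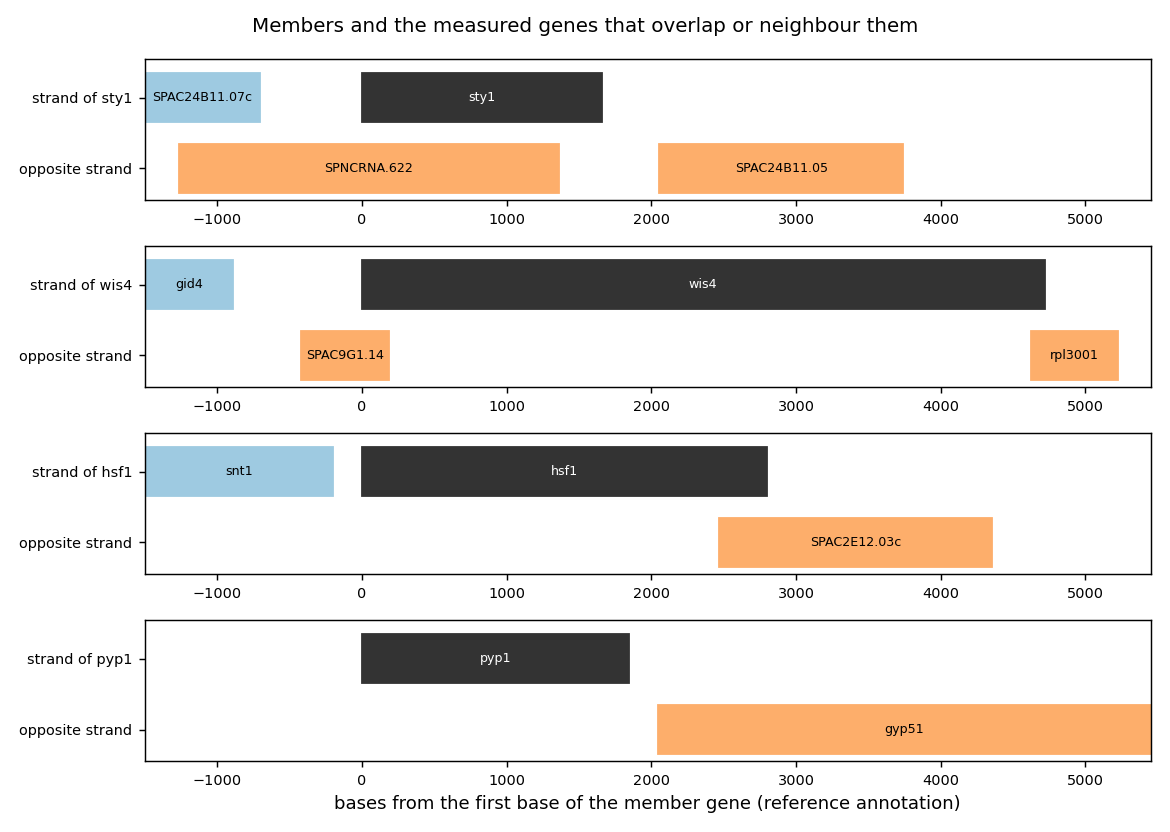
Gene models around sty1, wis4, hsf1 and pyp1 drawn to scale from the reference annotation; the horizontal axis gives bases from the first base of each member, the member is black, genes on its strand are blue and genes on the opposite strand are orange. SPNCRNA.622 covers 1362 bases of sty1, SPAC9G1.14 covers the first 190 bases of wis4 and SPAC2E12.03c the last 335 bases of hsf1, while pyp1 overlaps no measured gene.

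Whether the regulators changed with their targets was read from 5 lists of known partners and targets, set beside all sense entries. The Atf1 targets were called higher throughout in the strains that lack xap5. All 13 rose in the xap5 deletion (median deposited log2 fold 2.08), beside 21.1% of all entries, 11 of 13 in the pht1 deletion (median 0.97), beside 13.5%, and all 13 in the double deletion (median 3.00), beside 30.5%, and 0 fell. In the xap5 and double deletions atf1 rose too, at 1.77 and 2.25, whereas in the pht1 deletion the deposited atf1 fold was 0.10. The 2 Atf1 targets not called in the pht1 deletion, named here after their values were seen, were gpd1, for glycerol production (deposited log2 fold 0.06, adjusted p = 0.812), and tps1, for trehalose synthesis (0.30, adjusted p = 0.111).

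The Atf1 targets with the highest deposited log2 folds in the xap5 and double deletions were rds1 (3.24 without xap5, 2.27 without pht1 and 5.45 without both), hsp9 (2.64, 1.42 and 4.02) and the catalase gene ctt1 (2.59, 1.00 and 3.83), and in the pht1 deletion rds1 and hsp9 were followed by fbp1, which encodes fructose-1,6-bisphosphatase (1.05). The lists were chosen with earlier results of these data known, so they are no independent support for a direction. The TGACGT core lay in the start regions of 5 of the 13 targets, 38.5%, beside 5.91% of all. Among the other lists it lay in 2 of 8 Pap1 targets (25%) and 3 of 18 Sty1 partners (16.7%). It also lay in 2 of 15 Hsf1 targets (13.3%) and in 0 of 13 Pmk1 pathway genes. The region of srk1, of the partner list, had 3 matches.

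Among 18 partners of Sty1, 5 rose and 2 fell in the xap5 deletion (median deposited log2 fold 0.07), 3 rose and 3 fell in the pht1 deletion (0.11) and 9 rose and 1 fell in the double deletion (0.30). All sense entries were called higher and lower in 21.1% and 20.6%, 13.5% and 11.1%, and 30.5% and 34.3% of cases in those comparisons, and the partners' counts in the xap5 and pht1 deletions lie near these shares. The bZIP gene atf21 had the highest deposited log2 fold of the list in each strain (1.65 without xap5, 1.69 without pht1 and 4.61 without both), and srk1, which encodes a kinase activated by Sty1, rose in all 3 (0.94, 0.63 and 2.15). The phosphatase gene ptc1 rose in the xap5 deletion (deposited log2 fold 0.96, adjusted p = 5.36e-14) and the double deletion (1.39, adjusted p = 1.81e-29), and its fold without pht1 was 0.08 (adjusted p = 0.699). The bZIP gene atf31 rose in the pht1 deletion (deposited log2 fold 0.99, adjusted p = 2.64e-05).
The partners that fell were tdh1, a glyceraldehyde-3-phosphate dehydrogenase, in the xap5 and double deletions (deposited log2 folds -0.50 and -0.76), the kinase gene cmk2 in the xap5 deletion (-0.36), and the histidine kinase genes mak3, mak1 and mak2 in the pht1 deletion (-0.53, -0.40 and -0.35). By contrast, mak1 and mak2 were called higher in the double deletion, which also lacks pht1 (deposited log2 folds 0.33 and 0.33, adjusted p = 0.00913 and 0.00892), and mak3 was not called (-0.20, adjusted p = 0.22). Of these histidine kinases, Mak2 and Mak3 act upstream of Mcs4. The genes atf21 and srk1 rose in all 3 comparisons, and sty1 and wis1 were called in none of them.

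Of 13 genes of the Pmk1 pathway, 2 rose and 1 fell in the xap5 deletion (median deposited log2 fold -0.06), 1 rose in the pht1 deletion (0.10) and 3 rose and 3 fell in the double deletion (0.01). These counts are near or below the shares of all entries (21.1% higher and 20.6% lower, 13.5% and 11.1%, and 30.5% and 34.3%), and are no result about the pathway. The kinase kinase kinase gene mkh1 rose (deposited log2 folds 0.49 in the xap5 deletion and 0.86 in the double deletion) where its MAP kinase kinase pek1 (-0.48, adjusted p = 0.000357) and pmk1 (-0.47) fell in the double deletion. Called higher in the deposited table were also ecm33, a cell wall protein gene (0.67 without xap5 and 0.37 without both), and rnc1, an RNA-binding protein gene (0.56 without pht1 and 0.54 without both). Called lower were rgf2, an exchange factor gene (-0.52 without xap5 and -0.42 without both), and pck2, a protein kinase C gene (-0.33 without both). In this list 0 genes were called with a change of 2-fold or more.

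Pap1 targets rose in most cases while pap1 was called in the double deletion alone. Of 8 targets, 6 rose and 1 fell in the xap5 deletion (median deposited log2 fold 0.97), 5 rose in the pht1 deletion (0.60), and 7 rose and 1 fell in the double deletion (2.16). The shares of all entries called higher and lower were 21.1% and 20.6%, 13.5% and 11.1%, and 30.5% and 34.3%. The transporter gene caf5 (deposited log2 folds 0.65 without xap5, 0.86 without pht1 and 2.84 without both), the sulfiredoxin gene srx1 (1.38 in the xap5 deletion and 2.69 in the double deletion) and the glutathione transferase gene gst3 (1.30 in the xap5 deletion) rose, as did obr1 (0.88 in the pht1 deletion). The thioredoxin reductase gene trr1 fell in the xap5 deletion (deposited log2 fold -0.33, adjusted p = 0.016) and the double deletion (-0.37, adjusted p = 0.00448). The catalase gene ctt1 is in both the Pap1 and the Atf1 list. The motif TTAGTCA, one site form for Pap1, lay in the start regions of 4 of the 8 targets (50%) and of 4.52% of all genes, and the form TTACGTAA in 1 of 8 (12.5%) and 0.469% of all. The second form was also in 3 of the 13 Atf1 targets (23.1%). Both were searched on both strands and neither lay in a member's region. The regions of caf5 and obr1 had a TTAGTCA match and those of ctt1, srx1 and gst3 had none. Whether matches go with the rises was not tested.

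Chaperone genes rose in the xap5 deletion with hsf1 uncalled. Of 15 Hsf1 targets, 13 rose in the xap5 deletion (median deposited log2 fold 1.97), beside 21.1% of all entries, 6 in the pht1 deletion (0.28), beside 13.5%, and 12 without both genes (1.80), beside 30.5%, and 0 fell. In the same comparisons hsf1 had deposited log2 folds of 0.09, 0.31 and 0.44. The small heat shock gene hsp16 had deposited log2 folds of 3.70 without xap5, 1.80 without pht1 and 5.15 without both. Of the Hsp70 genes, ssa2 had 3.57 without xap5 and 2.69 without both, and ssa1 had 1.18 without pht1 and 3.19 without both. The Hsp70 genes sks2 (deposited log2 folds -0.18, -0.25 and -0.29) and ssc1 (0.09, -0.24 and -0.17), the 2 targets not called in the xap5 deletion, were not called in any comparison and are named after their values were seen. The Hsp90 cochaperone gene sti1 had a deposited log2 fold of 2.90 in the xap5 deletion, and the disaggregase gene hsp104 had 0.81 in the pht1 deletion. The motif GAANNTTC, a form of the heat shock element, lay in 9 of the 15 target regions (60%), in 11.1% of all regions and in 0 of the 10 members' regions. The regions of hsp16 and of the uncalled ssc1 had a match and that of hsp104 had none. A relation between matches and rises was not tested.

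**Figure D4:**
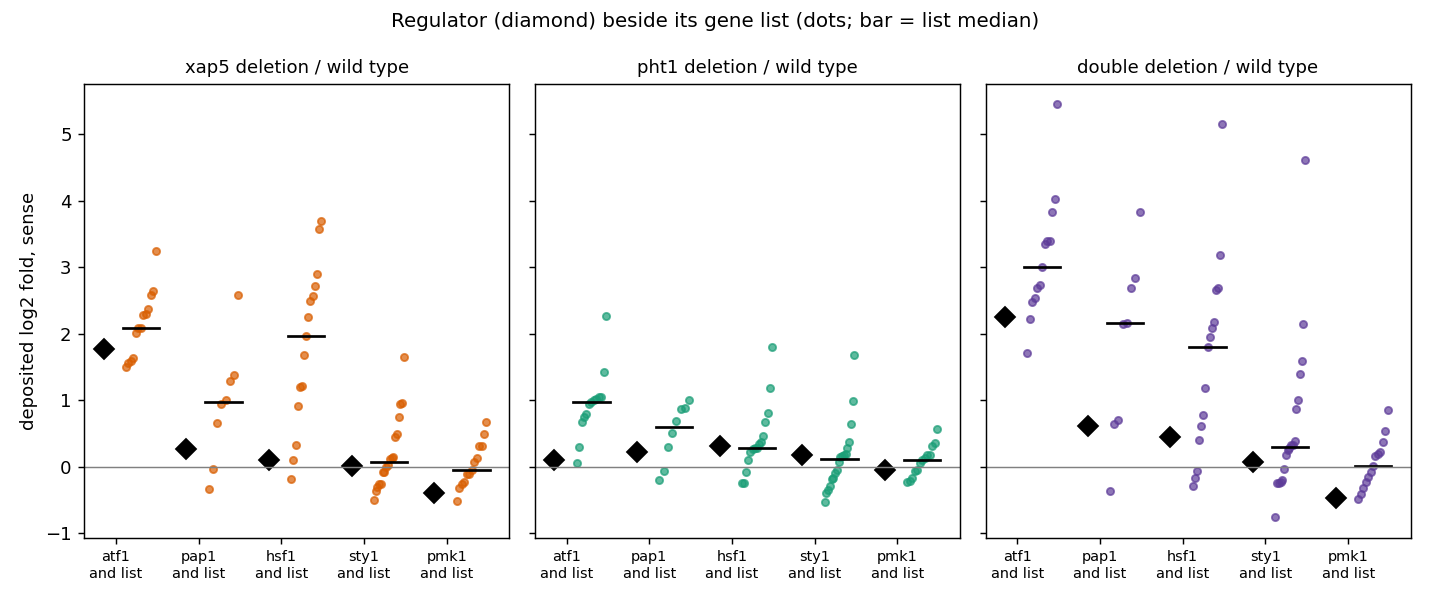
Deposited log2 fold over wild type (vertical axis) of each regulator (diamond) beside the genes of its list (dots, ordered by value, with the list median as a bar), 1 panel per deletion strain. The hsf1 diamond is at 0.09 in the xap5 deletion below a list median of 1.97, and the atf1 diamond at 0.10 in the pht1 deletion below a list median of 0.97. In the xap5 deletion the sty1 diamond is at 0.02 beside a list median of 0.07, and the pmk1 diamond at -0.40 beside -0.06.

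The members' calls narrowed in all 3 comparisons when 2-fold was required, and in the pht1 deletion alone at an adjusted p under 0.01. With a deposited adjusted p under 0.01, 4, 2 and 7 members were called in the xap5, pht1 and double deletions, beside 31.4%, 14.4% and 55.9% of entries in either direction. With an adjusted p under 0.05 and a change of at least 2-fold, 1 (atf1), 0 and 3 (pyp1, pyp2 and atf1) were called, beside 9.27%, 4.63% and 20.2%. With adjusted p-values computed again over the table, the counts stayed at 4, 3 and 7, beside 41.7%, 23.9% and 64.9%. That step reuses the deposited p-values, so it is no independent check.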

How the data were processed

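RNA of 13 libraries was sequenced, and the analysis started from the authors' deposited tables of their own comparisons of each deletion strain with wild type. These give, per the file headers, a log2 fold change (headed logFC, base 2 taken from the convention of edgeR), a p-value score that exceeds 1 in 55 sense entries, and an adjusted p-value. The deposited adjusted p-values were used for calls at 0.05. BWA 0.5.8c and edgeR are named in the submitters' processing notes, without their roles. How the folds were normalized is not stated in those sources, and the annotation is named EF2.12 per the file headers.

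With no count or value per library, no test was run and no error can be given; medians, counts of calls, differences of folds and Benjamini-Hochberg values were computed with Python 3.11.15, pandas 2.3.3 and NumPy 2.4.6. The Benjamini-Hochberg step was checked on simulated p-values. Genes were placed on RefSeq ASM294v3 (5639 of 5747 sense identifiers matched), and start regions were searched for 4 motifs. Gene ends and the overlaps of members with neighbours are those of this reference, and may differ in the annotation behind the deposited folds. The members and lists were chosen with earlier results of these data known. Named genes were the 10 members, in each list and comparison the 3 largest called folds in either direction, called neighbours, and the 3 entries nearest to each member called in all 3 comparisons; pcr1, ptc1, caf5 and mak values beyond that rule, and gpd1, tps1, sks2 and ssc1, were added after their values were seen.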

Additional observations from a re-analysis of the deposited data

Results flagged for a closer look

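The deposited intergenic table, which no comparison above uses, holds regions within 500 bases of a member (a window chosen after the data were seen). Of these 18 regions, 4 were called higher over wild type in the double deletion by the deposited adjusted p-value, beside 917 of all 6121 intergenic regions (15%). These 4 were called in neither single deletion, and the share of all regions with that pattern was not computed. The region directly downstream of sty1 (chrI:206082-206475) had a deposited log2 fold of 1.09 (adjusted p = 0.0027), against 0.43 in the xap5 deletion and 0.62 in the pht1 deletion. The region that ends 38 bases before pyp1 (chrI:5159164-5161473) had 2.17 (adjusted p = 4.09e-07), against 0.51 and 0.85, and the region that ends 290 bases before pyp2 (chrI:5202024-5202365) had 2.30 (adjusted p = 2.03e-05), against 1.31 and 1.38. A region inside the reference span of atf1 (chrII:1546465-1547319) had 1.93 (adjusted p = 1.84e-10), against 0.80 and 0.16, so that the deposited table and the reference differ there on what is intergenic. The same holds for pmk1 and hsf1, where regions inside the reference span were listed and were not called in any comparison. Coordinates are the deposited ones, with starts given 1 base higher, and their strand was not used here.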

How the results depend on the processing

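Calls rest on deposited p-values, and no value per library was used, so depth, an outlying library and the precision of any fold could not be checked. No paired analysis was possible because the tables hold no values per library, and leaving out each replicate was not run for the same reason. The alternative of members that overlap no annotated gene left no member, since all 10 overlap one. Benjamini-Hochberg values over the sense table kept all 18 counts within 1.5 times. They were computed from the same deposited p-values, so close counts were nearly fixed in advance. Centring on the median of all entries gave 33 values and changed no direction of a fold. The counts among these values could not change, since centring leaves the deposited adjusted p-values as they are. An adjusted p under 0.01 moved 1 of 21 counts, antisense in the xap5 deletion (0, against 1, chosen after seeing the data).

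Requiring at least 2-fold moved 15 of 21 counts. The xap5, pht1 and double deletion counts fell to 1, 0 and 3 members (4, 3 and 7 without it), 1, 1 and 5 Sty1 partners (7, 6 and 10), 0, 0 and 0 Pmk1 pathway genes (3, 1 and 6) and 4, 0 and 5 Pap1 targets (7, 5 and 8). In the pht1 deletion it left 5 Atf1 targets (11) and 2 Hsf1 targets (6), and 0 antisense calls were left in the xap5 deletion (1). Leaving out the 6 members that overlap a gene in the tables, an alternative chosen after seeing the data, gave 1, 1 and 2 calls among the rest. All were higher, beside 21.1%, 13.5% and 30.5% of all sense entries called higher. Fewer members were left, so these lower counts do not show a narrowing.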
